A study of Mus musculus with 23 samples.

Results

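A set of 161 genes was highest in microglia of young mice that had never been depleted. They were chosen by a rule on the measured values themselves. Expression was taken as CPM, the expected count over the library total times 1000000, and a gene was a member if its mean CPM over the 23 libraries was 5 or more and its mean log2(CPM + 1) in each of the other 3 groups was at least 0.5 below the young mean. The deposited tables hold 53090 genes, of which 10172 reached a mean CPM of 5, so the members were 1.58% of these. The distances from the young group were used by the rule, and they are given below as a description with no test.

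RNA was sequenced from microglia of female C57BL/6 mice in 23 libraries of 4 groups, and n counts libraries. The groups were young (Y, n = 7), young with repopulated microglia (Y-re, n = 3), old (O, n = 5) and old with repopulated microglia (O-re, n = 8). In the repopulated groups microglia were first depleted with PLX5622, an inhibitor of the receptor CSF1R, mixed into AIN-76A chow at 1200 ppm, and control mice ate the same chow without the drug. No genotype other than the shared strain is labelled, and the sources used here do not give ages, the length of treatment or the time allowed for regrowth. The protocols describe both CD11b magnetic separation followed by culture and RNA from cells sorted by flow cytometry, and the labels do not say whether any replicates share a source, so the p-values below measure the spread between these samples.

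Microglia are the macrophages of the brain parenchyma. They depend on signalling through CSF1R, and when its inhibitor is withdrawn the surviving cells divide and refill the tissue. Resident microglia in the healthy brain carry a characteristic set of transcripts, called homeostatic, that includes the ADP receptor P2ry12 and the Fc receptor-like gene Fcrls, and they lose part of it when the cells are activated. Old brains are known to hold microglia with raised immune and lipid-handling transcripts.

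The libraries held 43.66 to 58.19 M counts, with M for 1000000. Csf1r, which marks microglia and was no member, was abundant in every library, at 2301 to 7346 CPM. The 14 monocyte markers, all of which had counts in every group, summed to 1133 to 3561 CPM in Y, 3324 to 5981 in Y-re, 1725 to 10890 in O and 1530 to 17630 in O-re. The 27 homeostatic markers summed to 35670 to 44390 CPM in Y, 31510 to 36800 in Y-re, 14140 to 38560 in O and 13220 to 43050 in O-re. O replicate 3 stood apart among the old libraries, with the highest monocyte sum of its group and the lowest homeostatic sum, and Y replicate 3 had the fewest genes with a count of all libraries (16437). The libraries carry numbers in their titles, and those numbered 1 to 11 hold Y replicates 1 to 3, O replicates 1 and 2 and O-re replicates 1 to 5, while those numbered 12 to 24 hold the rest, including every Y-re library. What these numbers stand for is not labelled.

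P2ry12, Fcrls, Igsf10 and Cd5l are shown first by the 250 bases before their start sites, because they form 2 pairs of neighbours on chromosome 3. Cd5l, a secreted scavenger-receptor protein of macrophages, lies 94142 bases from Fcrls, and Igsf10, an immunoglobulin superfamily gene, lies 53863 bases from P2ry12. No annotated protein-coding gene lies wholly inside the gap of either pair. Genes that reach beyond a gap were not counted. The sequences are from RefSeq (GRCm38.p6), 5′ to 3′ on the gene's strand: Cd5l chr3:87357631-87357880 (+), Fcrls chr3:87263525-87263774 (-), Igsf10 chr3:59344257-59344506 (-) and P2ry12 chr3:59262986-59263235 (-). Capitals mark a match to any of 9 short motifs searched on both strands.
Cd5l: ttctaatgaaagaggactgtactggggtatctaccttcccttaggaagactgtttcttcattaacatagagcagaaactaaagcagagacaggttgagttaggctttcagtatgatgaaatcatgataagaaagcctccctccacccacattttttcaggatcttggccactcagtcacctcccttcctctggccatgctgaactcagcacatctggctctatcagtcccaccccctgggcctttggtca
Fcrls: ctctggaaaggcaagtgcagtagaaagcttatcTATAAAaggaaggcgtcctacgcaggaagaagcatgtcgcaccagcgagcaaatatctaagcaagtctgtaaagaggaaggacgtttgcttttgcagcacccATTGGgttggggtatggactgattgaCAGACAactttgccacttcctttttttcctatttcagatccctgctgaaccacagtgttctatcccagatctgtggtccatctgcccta
Igsf10: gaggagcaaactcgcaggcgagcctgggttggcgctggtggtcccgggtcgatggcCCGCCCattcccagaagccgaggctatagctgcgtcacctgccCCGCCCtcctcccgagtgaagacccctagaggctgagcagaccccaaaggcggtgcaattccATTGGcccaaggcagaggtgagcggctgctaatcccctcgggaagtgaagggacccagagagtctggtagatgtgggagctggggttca
P2ry12: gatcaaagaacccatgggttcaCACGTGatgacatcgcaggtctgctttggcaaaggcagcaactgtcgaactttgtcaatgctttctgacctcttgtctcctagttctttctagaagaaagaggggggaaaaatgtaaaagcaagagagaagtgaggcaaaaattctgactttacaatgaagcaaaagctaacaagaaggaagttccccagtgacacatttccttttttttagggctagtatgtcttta

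The search for PU.1 used the letters GAGGAAGT. The AP-1 motif was TGACTCA, and the joint motif of PU.1 with IRF8 was GAANNGAAA. For MEF2 the letters were TAAAAATA and for SMAD proteins CAGACA. The TATA box was read as TATAAA, the NF-Y box as CCAAT, the box of SP and KLF proteins as GGGCGG and the E-box as CACGTG. None of the 9 is contained in another. The Fcrls sequence held a TATA box at -217, a reverse NF-Y box at -115 and a SMAD motif at -89, counted in bases from the start site. The Igsf10 sequence held reverse SP and KLF boxes at -194 and -151 and a reverse NF-Y box at -89, the P2ry12 sequence held an E-box at -228, and the Cd5l sequence held none of the 9. Windows of 300 bases, from 250 before to 50 after the start, were found for 108 of the 161 members. The SMAD motif lay in the windows of 32.4% of these members, 18% of genes with a mean CPM of 5 or more and 23.6% of all genes. For the SP and KLF box the shares were 69.4%, 70.7% and 38.2%, and for PU.1 they were 3.7%, 4.1% and 3.69%. The NF-Y box was less frequent in the members, at 34.3%, against 42.9% and 41.1%. A gene counted if any of its windows held the motif. With only the first window of each gene the SMAD shares were 25.9%, 15% and 21%. These shares count letters and were not tested.

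Cd5l had the widest distance of any member from its nearest group. It stood at 63.4, 137, 109, 207, 169, 284 and 220 CPM in Y replicates 1 to 7. In Y-re it was 70.5, 15.7 and 44.8 CPM, in O it was 21.1, 35.0, 24.4, 19.4 and 30.4 CPM, and in O-re it ranged from 2.67 to 25.7 CPM with a median of 14.3. Every old library was below every young library, and 1 Y-re library lay inside the young range. The mean log2(CPM + 1) in Y was 2.55 above O, 3.65 above O-re and 2.03 above Y-re. Y replicates 4 to 7 were all higher than replicates 1 to 3. Within library numbers 1 to 11 the distance was 1.82 from O and 3.03 from O-re, and within numbers 12 to 24 it was 3.10 and 4.09.

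Rgs7bp, which encodes a membrane anchor for regulators of G protein signalling, followed the same order of groups. It was low throughout: 6.72 to 20.1 CPM in Y (median 13.7), 4.96, 8.13 and 5.46 CPM in Y-re, 2.61, 2.61, 2.79, 2.89 and 1.87 CPM in O, and 0.27 to 3.08 CPM in O-re. The old groups did not overlap with Y, while Y-re replicate 2 did. The distances from Y were 1.95 for O, 2.36 for O-re and 0.95 for Y-re on the log2 scale.

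Igsf10 differed in that its 3 lower groups stood at nearly the same level. It ranged from 10.6 to 27.0 CPM in Y (median 20.6), and from 3.21 to 7.73 CPM over the 16 other libraries, with no overlap. Bmp1, a secreted metalloprotease that processes procollagen, was at 20.6 ± 5.3 CPM (SD, n = 7) in Y, 8.05 ± 3.02 (n = 3) in Y-re, 7.47 ± 2.79 (n = 5) in O and 4.72 ± 1.17 (n = 8) in O-re. Its lowest young library, replicate 1 at 10.2 CPM, lay below Y-re replicate 2 at 11.5 CPM. Stag3, a meiotic cohesin subunit, was at 22 ± 15.6 CPM in Y and 5.83 to 8.50 CPM on average in the other groups. Its young mean rests partly on replicate 7, at 56.1 CPM, where the other 6 ranged from 8.88 to 22.

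**Figure D1:**
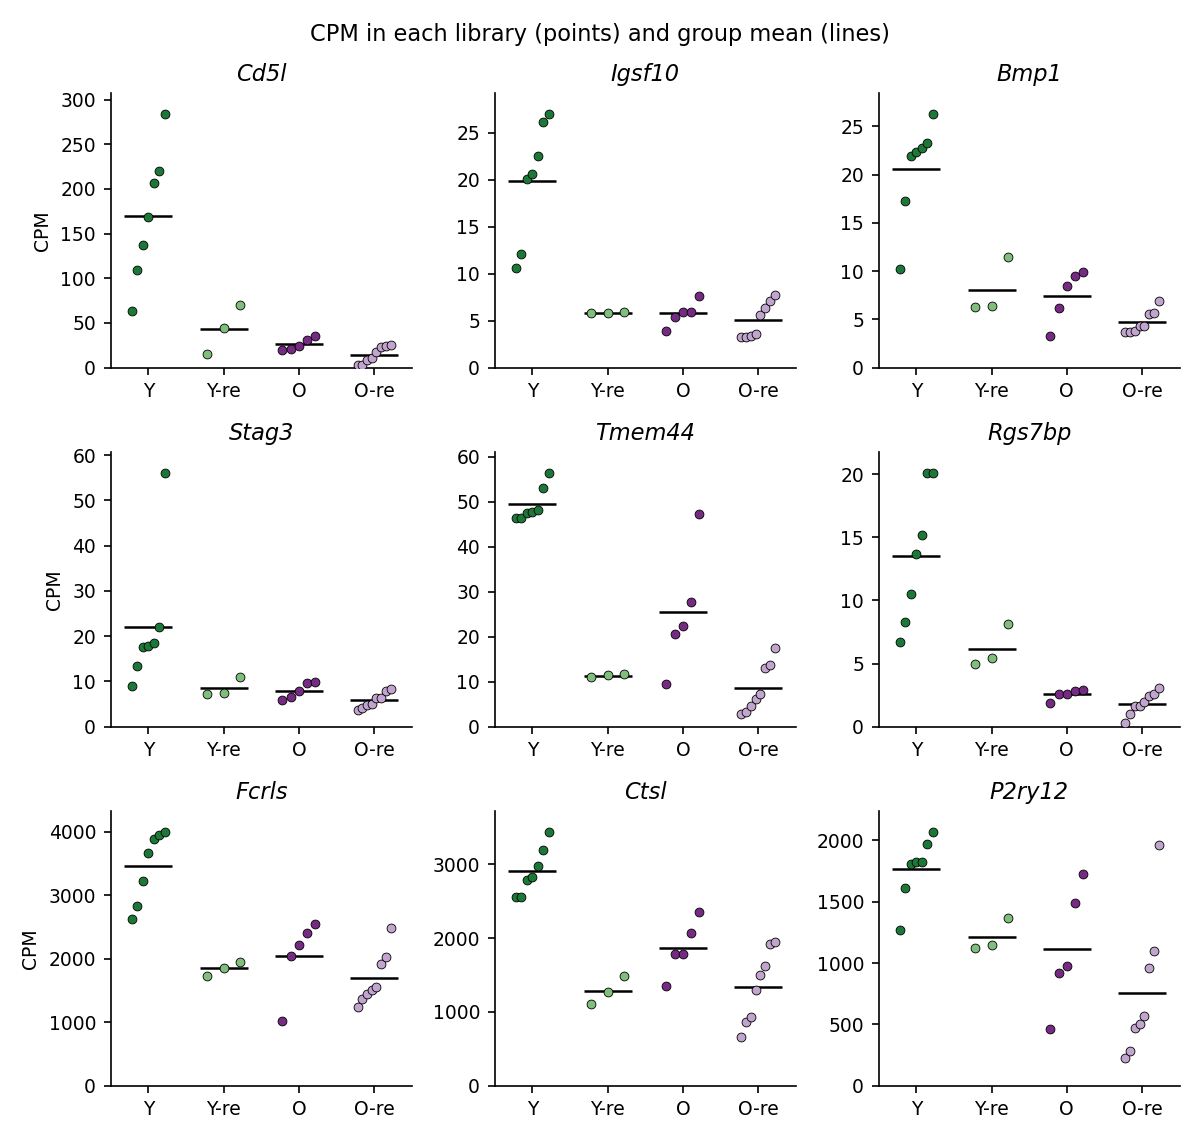
CPM of 9 members in each library (points) and the group mean (lines) for Y, Y-re, O and O-re, on linear axes from 0. The first 6 also met the rule relative to other microglia markers, and the last 3 are the most abundant: Cd5l and Rgs7bp have their second highest group mean in Y-re, and Tmem44 has it in O.

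Tmem44 and Mdfi had lower mean levels in both repopulated groups than in either unreplaced group. Tmem44 was at 46.3 to 56.4 CPM in Y and at 11, 11.4 and 11.7 CPM in Y-re. In O it was 47.2, 22.4, 9.58, 27.8 and 20.6 CPM, so that 1 old library reached the young range, and in O-re it was 2.92 to 17.5 CPM. Mdfi, an inhibitor of myogenic transcription factors, was at 13.4 to 18.7 CPM in Y, 16.8, 8.02, 2.47, 11.2 and 7.13 CPM in O, 0.76 to 1.70 CPM in Y-re and 0.66 to 4.48 CPM in O-re. Sema4g, Nectin2, Serpine2, Jam2 and Eva1a completed the 12 members with the widest distance from their nearest group. Nectin2 and Jam2, adhesion molecules of cell junctions, were in every young library above all others: Nectin2 at 60.7 to 89.5 against 11.5 to 54.4 CPM, and Jam2 at 77.5 to 93.7 against 15.7 to 68.0 CPM. The semaphorin Sema4g was at 40.5 to 56.5 CPM in Y, and O-re replicate 1 lay inside that range at 53.7 CPM.

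The most abundant members were Fcrls, the lysosomal protease Ctsl and P2ry12. Fcrls stood at 2630 to 4000 CPM in Y, 1730 to 1950 in Y-re, 1020 to 2540 in O and 1240 to 2490 in O-re, with no young library overlapping any other. Ctsl was at 2550 to 3440 CPM in Y and at 664 to 2350 CPM in the rest, again with no overlap. P2ry12 was at 1270 to 2070 CPM in Y, 1120 to 1370 in Y-re, 458 to 1730 in O and 228 to 1960 in O-re, so each group overlapped with Y. Per length, the order of the 3 in Y was Ctsl at 4060 ± 683 transcripts per 1000000 (TPM), Fcrls at 2630 ± 518 and P2ry12 at 1430 ± 243 (SD, n = 7), whereas Rgs7bp was at 3.27 ± 1.38 TPM and Igsf10 at 3.37 ± 1.18 TPM.

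Over all members the median distance below Y was 0.67 for O, 1.21 for O-re and 0.90 for Y-re on the log2 scale, and over the 10172 genes of the same level it was -0.02, -0.02 and 0.00. O-re was the lowest group for 117 members, Y-re for 37 and O for 7. All young libraries lay above all O libraries for 21 members, above all O-re libraries for 66 and above all Y-re libraries for 120, which the choice of members favours; the shares over the genes with a mean CPM of 5 or more were 0.806%, 1.56% and 9.07%. All 7 young libraries lay above all 16 others for 13 members (Igsf10, Nectin2, Jam2, Nrep, Fcrls, Gmpr, Npl, Tmem144, Vangl2, Abi2, Naprt, Ctsl and Jak3), and for 19 genes, 0.187%, of those with a mean CPM of 5 or more. By edgeR's quasi-likelihood test with Benjamini-Hochberg adjustment over 18720 genes, 11 members were called lower in O than in Y, 129 in O-re and 20 in Y-re, where 0.235%, 5.92% and 0.513% of all genes tested were called lower. The rule used these contrasts, and nothing is read from the counts.

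**Figure D2:**
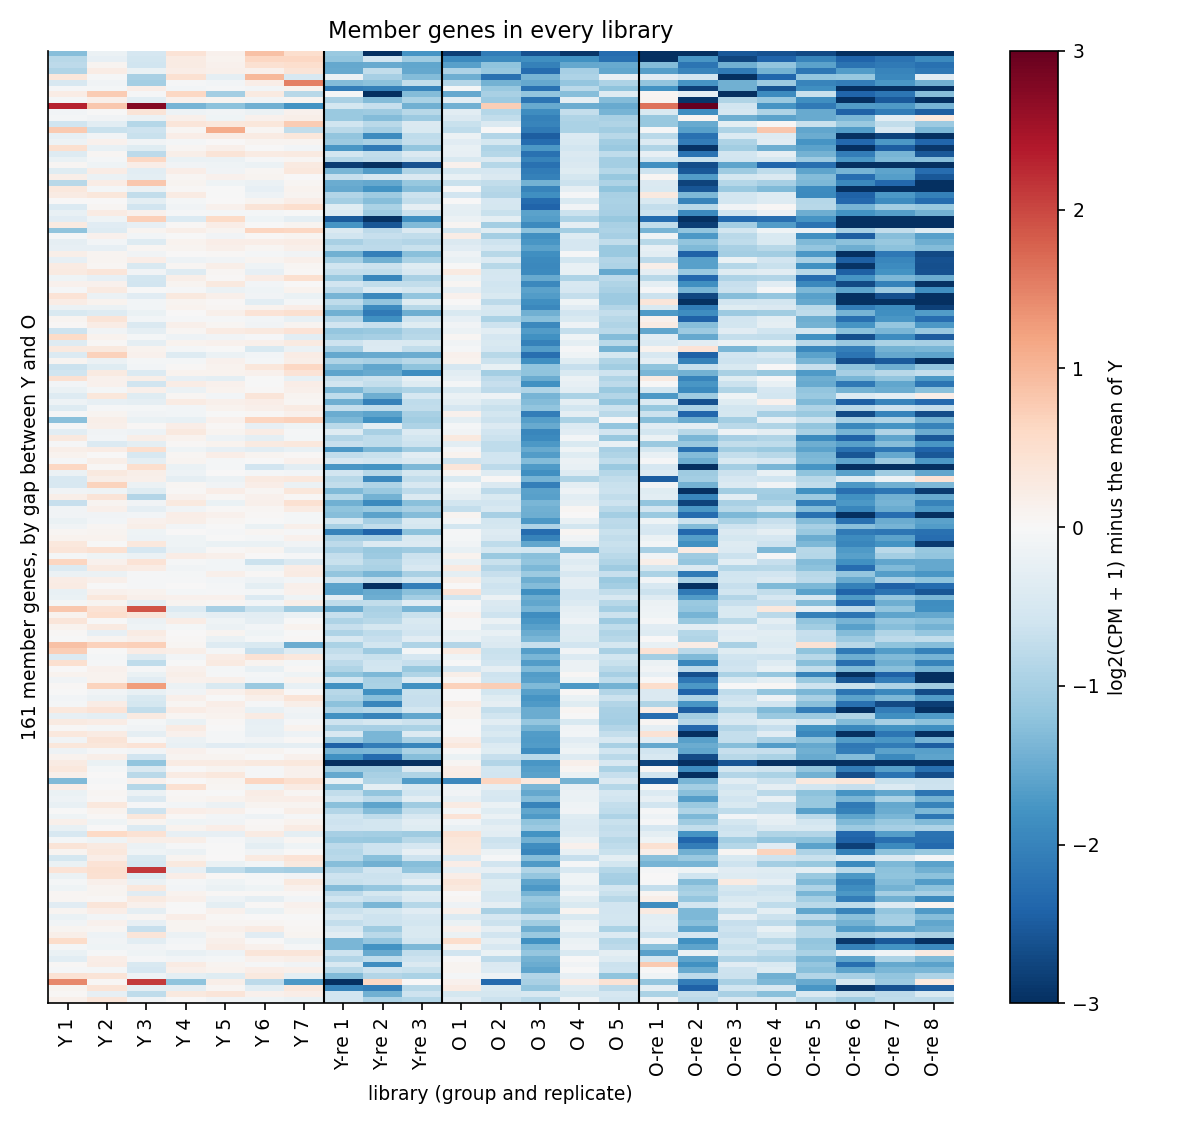
The 161 members (rows, ordered by the distance between Y and O) in the 23 libraries (columns), as log2(CPM + 1) minus the mean of the 7 Y libraries, with blue for lower and red for higher. O replicate 3 and O-re replicates 2, 6, 7 and 8 are the bluest columns of the old groups, and O replicate 1 is the palest.

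Membership rested to a large extent on O replicate 3. Without O replicate 3 the rule found 63 genes, 62 of them members, and the median distance of the 161 members from O was 0.45 in place of 0.67. Leaving out any other library gave 144 to 208 genes, and 47 members were kept in each of the 23 runs that left out a library, O replicate 3 included, Cd5l, Rgs7bp, Igsf10, Fcrls and Ctsl among them. The young side also counted, since 45 members were lost when some young library was left out. P2ry12 was lost without Y replicate 1, Mrc2, a collagen receptor, without Y replicate 2, Lpl, lipoprotein lipase, without Y replicate 6 or 7, and Ckb, the brain creatine kinase, without Y replicate 2, 3, 4 or 7. At the edge of the rule, Laptm4b, Slc39a8 and Plcd1 had a smallest distance of 0.501, and R74862, Fam167b and Ninl missed it at 0.496, 0.496 and 0.498.

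In both runs of library numbers most members were lower than in young mice, though not to the same extent. Within numbers 1 to 11 the median distance was 0.29 for O and 0.88 for O-re, with 146 and 161 of the 161 members below Y. Within numbers 12 to 24 it was 0.93 for O, 1.71 for O-re and 0.94 for Y-re. To read the pattern in libraries that had no part in the choice, the rule was applied to numbers 12 to 24 alone, which gave 229 genes. In numbers 1 to 11, 181 of these (79.0%) had both O and O-re below Y, where 31.4% of the genes with a mean CPM of 5 or more did. A distance of 0.5 or more from Y in both groups held for 29 of the 229 (12.7%), and for 0.924% of those genes. By edgeR within numbers 1 to 11 none of the 229 was called in either old group against Y, where 0% of all genes tested were called lower in O and 0.00533% in O-re; at an unadjusted p under 0.05 there were 5 and 104 of the 229, and 2.89% and 11% of all genes. The median difference from Y there was -0.165 for O and -0.704 for O-re, against 0.0452 and 0.0167 over the genes with a mean CPM of 5 or more. Without Y replicate 3 the share was 86.9%, where 39.6% of all such genes did. With the choice made in numbers 1 to 11 on the old groups and read in 12 to 24, it was 62.2% of 98 genes, beside 37.5%. The O side of the reading in numbers 1 to 11 rests on O replicates 1 and 2, with monocyte sums of 1725 and 7255 CPM. All 229 genes were read in the same libraries, and the part of the cell type markers in the share was not tested.

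The level of the members was low in the old libraries with the highest monocyte sums. The mean log2(CPM + 1) of the 161 members was 5.19 to 5.37 in Y, 4.09 to 4.44 in Y-re, 3.70 to 5.10 in O and 3.36 to 4.74 in O-re. O replicate 3, at 3.70, had the highest monocyte sum of the O libraries, and O-re replicates 6 and 8, at 3.36 and 3.39, had the highest of all. O-re replicate 1 had a monocyte sum of 1530 CPM and a homeostatic sum of 43050 CPM, both inside the young range. Its members were at 4.74, below every Y library. The homeostatic sum includes 10 members, so it is not independent of the members' level. In bulk RNA fewer cells of a type and less RNA per cell cannot be told apart, and the part of the markers in the members' level was not tested. 4 libraries outside Y had a monocyte sum inside the young range: O replicate 1, O-re replicates 1 and 4 and Y-re replicate 3. The top of that range, 3561 CPM, is Y replicate 3, and the next highest young sum was 2297 CPM. O-re replicate 4 (3274 CPM) and Y-re replicate 3 (3324 CPM) lay between these sums. The monocyte marker Ly6c2 was at 7.75, 7.63, 14.82 and 7.44 CPM in the 4 libraries. It was at 7.57 CPM in Y replicate 3 and 0.25 to 1.23 CPM in the other young libraries, so a like monocyte content is not shown. In the 4 libraries Cd5l was at 21.1, 3.54, 24.3 and 44.8 CPM, all below the lowest young library, and Rgs7bp was at 2.61, 0.27, 1.60 and 5.46 CPM, also below it. Of the 161 members, 33, 88, 121 and 133 were below their lowest young value in these 4 libraries, which is 20.5%, 54.66%, 75.16% and 82.61%, where 9.43%, 19.6%, 23.66% and 17.39% of the genes with a mean CPM of 5 or more were. The members were chosen for being below Y, and these libraries were part of that choice.

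The members were also read relative to 17 homeostatic markers that were not members, by taking the mean log2 value of these from each library, an alternative chosen after the data were seen. The difference between members and markers was then -5.06 to -4.78 in Y, -5.12 to -4.96 in O, -5.68 to -4.99 in O-re and -5.91 to -5.65 in Y-re on the log2 scale. O thus came next to Y, and the 3 Y-re libraries were apart from every Y and O library. This order is not independent of the choice of markers. The 17 were no members mainly because of their level in Y-re. Their median distances below Y were 0.64 in O, 0.81 in O-re and 0.20 in Y-re. Taking them away therefore lowers the distance from O more than that from Y-re, and nothing is read from the order. Relative to these markers 7 genes met the rule, all of them members: Cd5l, Igsf10, Bmp1, Stag3, Tmem44, Rgs7bp and Erdr1. Their distances from O ranged from 0.51 for Tmem44 to 1.97 for Cd5l. The reads of Erdr1 may be divided with near-identical copies, and its count is uncertain. The distance from Y-re was still 0.5 or more for 121 members, from O-re for 62 and from O for 7, and the medians were 0.73, 0.37 and 0.09.

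**Figure D3:**
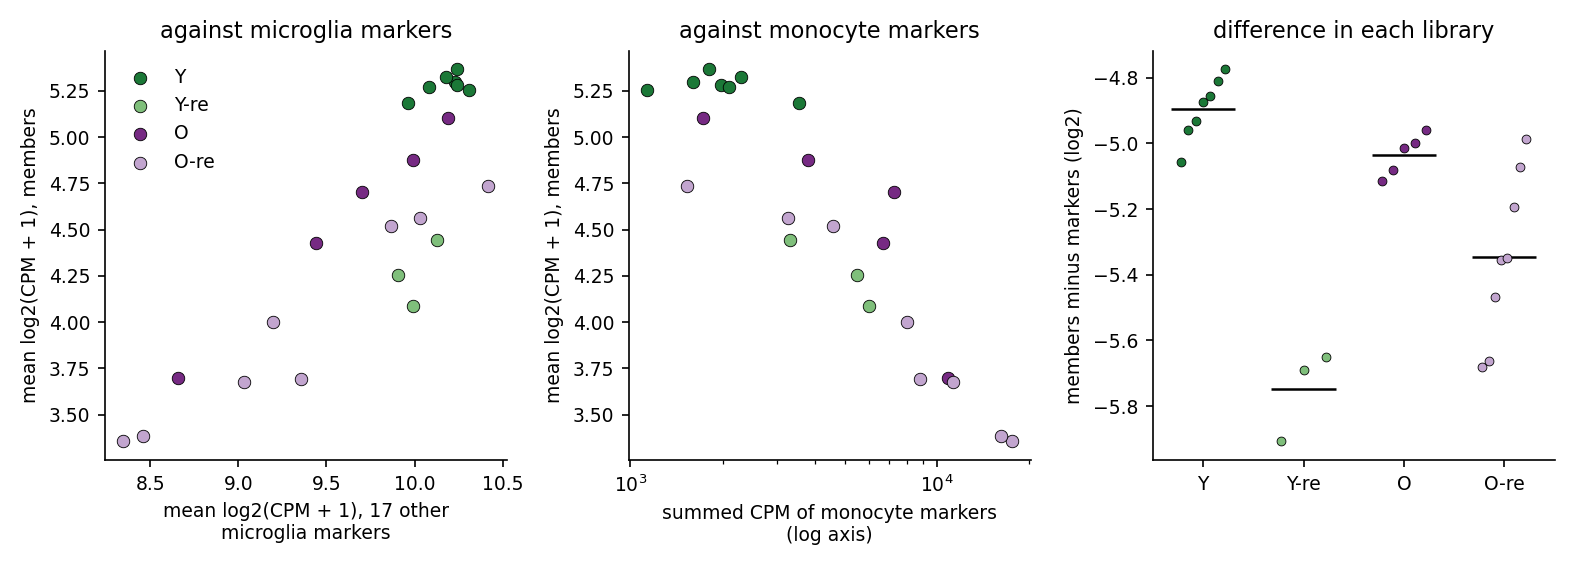
Mean log2(CPM + 1) of the 161 members in each library against that of 17 other microglia markers (left) and against the summed CPM of 14 monocyte markers on a log axis (middle), and the difference between members and microglia markers by group with group means as lines (right). In the right panel the Y libraries lie between -5.06 and -4.78, the O libraries between -5.12 and -4.96 and the Y-re libraries between -5.91 and -5.65.

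3 contrasts leave out the young group. The rule set no limit on these differences, but it used the mean of each group, and O was the nearest group to Y for 110 of the 161 members, so the direction over all members is not independent of their choice. In old mice, repopulated microglia had lower levels of Myo18b, Mdfi and Efnb2 than unreplaced microglia. Myo18b, an unconventional myosin, was at 42.1, 21.4, 11.2, 44.7 and 28.4 CPM in O and at 0.33 to 5.80 CPM in O-re, with no overlap. It was at 0.56, 1.67 and 1.94 CPM in Y-re as well, and at 17.2 to 50.6 CPM in Y. The log2 fold change in O-re versus O was -3.69 ± 0.58 (SE), with an adjusted p of 0.00789 by edgeR's quasi-likelihood test. Mdfi changed by -2.11 ± 0.42 (adjusted p = 0.0312). Efnb2, the ligand ephrin-B2 of Eph receptors, was at 2.64 to 13.4 CPM in O and 1.07 to 3.79 CPM in O-re, and changed by -1.55 ± 0.31 (adjusted p = 0.0327); O replicate 3 at 2.64 CPM lay inside the O-re range.

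These were the 3 members called lower in O-re versus O, none was called higher, and 0.214% of all genes tested were called lower. The log2 fold change was below 0 for 146 of 161 members, with a median of -0.43, where 49.4% of all genes were below 0 and their median was 0.00. At an unadjusted p under 0.05 there were 45 members, all lower, and 10.4% of all genes. When only the old groups entered the fit no member was called, with the run of library numbers as a block there were 7, and within numbers 12 to 24 there were 77. The share of all genes called was not counted in these alternative fits, so nothing about the members is read from the numbers. Without O replicate 1, 4 or 5 or O-re replicate 4 or 8, 1 member was called, without O replicate 3 there were 5, and without O-re replicate 1 there were 8. Myo18b stayed called in each of the 23 fits that left out a library, while Mdfi was lost without O replicate 1, 4 or 5 or O-re replicate 2, 4 or 8 (adjusted p up to 0.126) and Efnb2 without O replicate 1, 4 or 5 or O-re replicate 4, 6, 7 or 8 (up to 0.126).

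Between repopulated microglia of old and young mice no member was called, and no gene at all was called lower (0% of those tested), while 5 members and 11.7% of all genes had an unadjusted p under 0.05. Rgs7bp and Cd5l had the smallest p among the members: Rgs7bp had a log2 fold change of -1.78 ± 0.40 (SE) in O-re versus Y-re with an adjusted p of 0.315, and Cd5l one of -1.59 ± 0.52 with an adjusted p of 0.38, by edgeR's quasi-likelihood test. For Rgs7bp the 3 Y-re libraries lay above all 8 O-re libraries. The median over the members was -0.19, beside 0.05 over all genes, and 113 members were below 0. With libraries scaled to the 17 other microglia markers the members' median turned to 0.40 and that of all genes to 0.88, while Rgs7bp and Cd5l stayed below 0 at -0.81 and -0.82. DESeq2 called 1 member, Rgs7bp, at an adjusted p of 0.0128, and voom with sample quality weights called 45. Within library numbers 12 to 24, which hold every Y-re library, 101 members were called by edgeR, Rgs7bp (adjusted p = 0.000832) and Cd5l (adjusted p = 0.00728) among them. The O-re libraries there, replicates 6 to 8, had monocyte sums of 17630, 11290 and 16130 CPM, and the Y-re libraries had 3324 to 5981. The part of these markers in the calls was not tested. The share of all genes called was not counted in these alternative fits, so nothing about the members is read from their numbers.

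Between repopulated microglia of young mice and unreplaced microglia of old mice no member was called either, where 0.0214% of all genes were called lower. The smallest adjusted p was 0.072 by edgeR's quasi-likelihood test, for Myo18b with a log2 fold change of -4.35 ± 0.91 (SE) and for Efnb2 with -2.16 ± 0.45. Rgs7bp and Cd5l had values above 0, at 1.31 ± 0.45 (adjusted p = 0.281) and 0.79 ± 0.59 (adjusted p = 0.637). Over the members 123 were below 0 and the median was -0.22, beside -0.06 over all genes. Of the members 21 had an unadjusted p under 0.05, and 11.2% of all genes did. Without O replicate 3 or without O-re replicate 2, 1 member was called: Efnb2 (adjusted p = 0.0236) and Myo18b (adjusted p = 0.0345). All Y-re libraries have numbers from 12 to 24, while O has both runs. With the run of numbers as a block 4 members were called by edgeR, Efnb2 (adjusted p = 0.0121) and Myo18b (adjusted p = 0.027) among them, and within numbers 12 to 24 there were 9. DESeq2 called 5 members and voom 9. Here too the share of all genes called was not counted in the alternative fits.

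**Figure D4:**
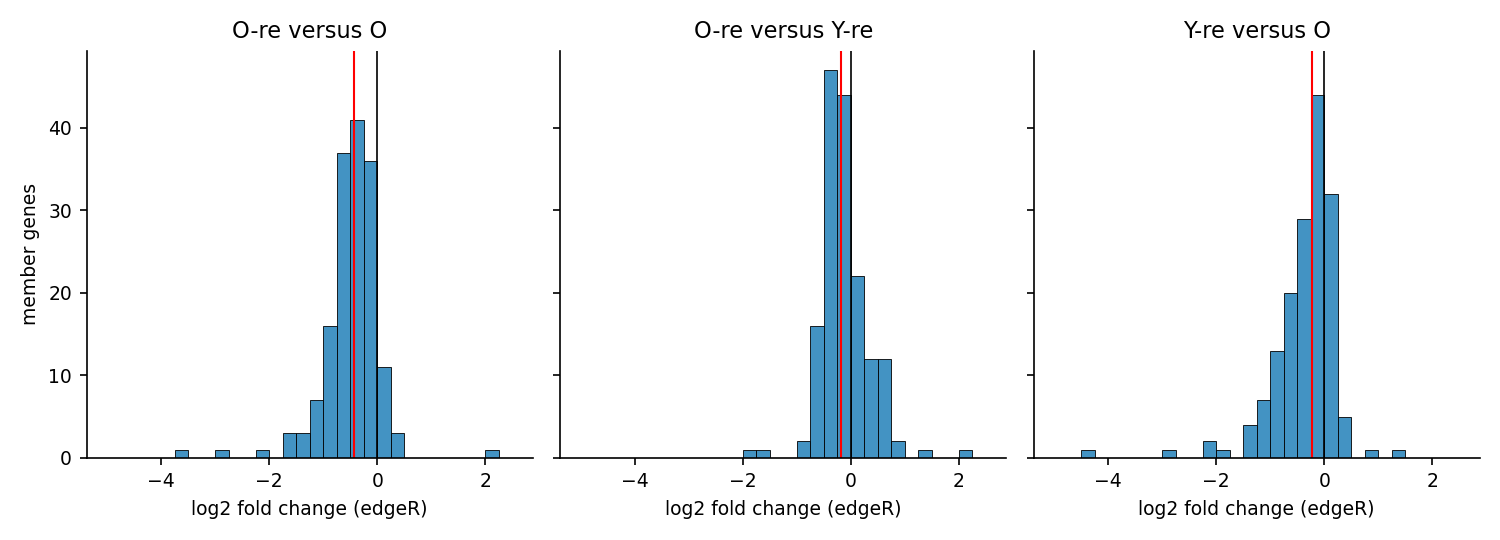
Histograms of the edgeR log2 fold changes of the 161 members in O-re versus O, O-re versus Y-re and Y-re versus O, with a black line at 0 and a red line at the members' median (-0.43, -0.19 and -0.22). The bar farthest to the left in the first and the third panel is Myo18b.

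By role, receptors and signalling molecules were the largest group, with 22 of the 108 members to which a role was given; roles and the examples below were chosen after values were seen. Their median distance was 0.68 from O, 1.23 from O-re and 0.78 from Y-re. They hold P2ry12, the adhesion receptor Adgrg1, the medium-chain fatty acid receptor Gpr84, the adenosine receptor Adora1 and the GABA-B receptor subunit Gabbr1. Adgrg1 was lowest in libraries with high monocyte sums: it was at 299 to 436 CPM in Y and at 25.9, 42.5 and 11.6 CPM in O-re replicates 6 to 8, yet at 481 CPM in O-re replicate 1. Gpr84 was at 252 to 563 CPM in Y, 190 to 253 in Y-re, 84.5 to 345 in O and 107 to 329 in O-re.

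Among the 13 secreted proteins and matrix components the median distances were 0.83, 1.21 and 1.28 from O, O-re and Y-re. Next to Cd5l, 2 lipoprotein genes were members. Apob, the protein core of low-density lipoprotein, was at 7.67 to 18 CPM in Y, 2.68 to 9.28 in O, 0.47 to 2.22 in Y-re and 0.00 to 2.38 in O-re. Lpl was at 213 to 446 CPM in Y and overlapped in every group, with 58.8 to 294 CPM in O. Serpine2, a serine protease inhibitor, was at 508 to 1030 CPM in Y, 219 to 474 in Y-re, 146 to 712 in O and 53.5 to 624 in O-re. The basement membrane genes Nid2 and Lamb2 had mean levels of 21.9 ± 2.4 and 37.9 ± 5.2 CPM in Y, 9.16 ± 0.83 and 14.8 ± 2.8 in Y-re, 11 ± 4.15 and 28.5 ± 13.5 in O, and 13.2 ± 8.35 and 17 ± 7.18 in O-re (SD). Nid2 was at 23.3 and 27.5 CPM in O-re replicates 2 and 8, inside and above its young range of 19.1 to 24.9.

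The 18 adhesion and surface proteins had a median distance of 0.69 from O, 1.35 from O-re and 1.01 from Y-re, and their median log2 fold change in O-re versus O was -0.45. The 18 genes of the cytoskeleton and its regulators had medians of 0.60, 1.38 and 0.87, and of -0.61 in O-re versus O. Marcks, an actin-binding substrate of protein kinase C, was the most abundant of them, at 1230 to 1580 CPM in Y, 886 to 997 in Y-re, 701 to 1290 in O and 488 to 1180 in O-re. The 17 enzymes had median distances of 0.67, 1.04 and 0.76. Phgdh and Psat1, consecutive enzymes of serine synthesis, were at 158 and 229 CPM on average in Y and at 71.1 and 108 in Y-re, 118 and 141 in O, and 78.4 and 117 in O-re. The 11 channels and transporters, with the fructose transporter Slc2a5, the iron exporter Slc40a1 and the potassium channel Kcnma1, had median distances of 0.56, 1.11 and 0.69. The 9 regulators of transcription and chromosomes had medians of 0.65, 1.59 and 1.03.

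Of the 31 lists of genes prepared for this tissue, the homeostatic list held most members, 10 of its 27 measured genes: P2ry12, Fcrls, Slc2a5, Adgrg1, Rtn4rl1, Ecscr, Serpine2, Crybb1, Gal3st4 and Tgfa. The 17 others were kept out mainly by their level in young repopulated mice. They had a distance of 0.5 or more from O in 11 cases and from O-re in 14, and from Y-re in 1, Gpr34. Their median distances were 0.64, 0.81 and 0.20. Csf1r was at 6950 ± 411 CPM (SD, n = 7) in Y and 6080 ± 571 (n = 3) in Y-re, and Sparc, a secreted matrix-binding protein, at 3570 ± 299 and 2660 ± 353. None of the 27 was called in any of the 3 contrasts that leave out Y. Of all genes tested, 0.214% were called lower in O-re versus O, 0% in O-re versus Y-re and 0.0214% in Y-re versus O. No member was found in the lists of microglia transcription factors, the TGF-beta and BMP pathway, immediate early genes, heat shock, the circadian clock, interferon response, MHC class II or sterol synthesis.

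Members also lay near each other in the genome beyond the pairs on chromosome 3 named above. Within 200 kb there were 10 pairs among the 142 members with coordinates in the annotation used (GENCODE M21, GRCm38). Such pairs were not counted for other genes. The crystallin genes Cryba4 and Crybb1 are 3296 bases apart on chromosome 5. Gal3st4 and Stag3 are 7399 apart on the same chromosome, with 1 protein-coding gene wholly inside the gap. Peg10 and Sgce, imprinted genes read in opposite directions from starts 98 bases apart on chromosome 6, were at 38.1 ± 2.9 and 77.2 ± 8.5 CPM in Y. Peg10 was at 12.4 ± 3.6 CPM in Y-re and Sgce at 52.4 ± 5.0 (SD), a distance of 1.58 and of 0.55 on the log2 scale, so the neighbours did not move by the same size. Crybb1 was at 79.2 to 183 CPM in Y and 1.83 to 83 CPM in O-re.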

How the data were processed

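Per the submitters' processing notes, reads were checked with FastQC 0.11.5, and STAR, RSEM, limma and the mouse build GRCm38 are named; no source names the annotation or use of strand. The libraries were poly(A)-selected, stranded and read singly over 50 nt, per the labels' protocols. Per the file headers, the authors deposited RSEM gene tables with expected counts and TPM values per library. Expected counts (87.26% whole within 1e-06) were rounded before testing. CPM was computed here from the deposited expected counts over the library total, TPM was used as deposited to set genes side by side, and log2 values used a pseudocount of 1 CPM. Estimated counts share out ambiguous reads, which leaves near-identical, overlapping and antisense genes uncertain.

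R 4.3.3 and edgeR 4.0.16 (glmQLFit, glmQLFTest; filterByExpr, 18720 genes, all 161 members kept; TMM; 1 coefficient per group; all 23 libraries) gave log2 fold changes, with calls at 0.05 after Benjamini-Hochberg adjustment. Limma 3.58.1 (voom) and DESeq2 1.42.0 gave alternatives. The fit and the rule were tested on simulated data. Every library was mapped to its group by its label; replicates are numbered in accession order.

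The members, gene lists and tests were chosen with earlier results of these data known. Genes named were Cd5l, Rgs7bp and Igsf10, the 12 with the widest distance from their nearest group, called members (or those with the smallest p), the 3 most abundant, members of the lists with their most abundant other genes, those at the threshold, and those that rest on a young library; other genes were chosen after their values were seen. Some genes that this rule names are not reported here.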

Additional observations from a re-analysis of the deposited data

Results flagged for a closer look

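Of 17 named members and the mean over all members, each examined in Y, O and O-re, 3 values of 54 groups lay far from the rest of their group by Dixon's criterion, which chance alone meets in about 1 in 20 groups. Stag3 stood at 56.1 CPM in Y replicate 7, where the other young libraries ranged from 8.88 to 22. Sema4g stood at 53.7 CPM in O-re replicate 1, where the other 7 ranged from 2.0 to 26.5. Rgs7bp stood at 1.87 CPM in O replicate 5, where the other 4 ranged from 2.61 to 2.89.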

How the results depend on the processing

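The number of members was 99 with a pseudocount of 5, 244 at a mean CPM of 1 or more, 80 at 20 or more, 8 with a distance of 1, and 7 relative to the other microglia markers; leaving out a library gave 63 to 208. Members called in O-re versus O numbered 7 with DESeq2, 36 with voom and sample quality weights, 0 with only the groups compared, 7 with the run of library numbers as a block, 77 within numbers 12 to 24, 0 within 1 to 11, 5 relative to the other markers, and 1 to 8 without a library. In O-re versus Y-re they numbered 1 with DESeq2, 45 with voom and 101 within numbers 12 to 24, and 0 to 0 without a library. In Y-re versus O they numbered 5 with DESeq2, 9 with voom, 4 with the run as a block, 9 within numbers 12 to 24, 7 relative to the other markers, and 0 to 1 without a library. The share of genes chosen in numbers 12 to 24 and read in 1 to 11 was 86.9% without Y replicate 3 and 62.2% with the runs exchanged. The cause of these changes was not tested. Relative to the other markers, 24, 0 and 37 of all genes tested were called in O-re versus O, O-re versus Y-re and Y-re versus O. In the other alternative fits of these 3 contrasts the share of all genes called was not counted. Scaling to the other markers moved the median log2 fold change of all genes tested from 0.00 to 0.28 in O-re versus O, from 0.05 to 0.88 in O-re versus Y-re and from -0.06 to -0.60 in Y-re versus O, and that of the members to -0.24, 0.40 and -0.60. Log2 fold changes of Myo18b, Mdfi and Efnb2 in O-re versus O kept their sign in every alternative run, but not always their call. None of the 3 was called with only the groups compared or within numbers 1 to 11. Relative to the other markers Efnb2 was not called either (adjusted p = 0.0659 by edgeR's quasi-likelihood test). No paired analysis was possible because the labels give the groups no shared replicate numbers. Y-re had 3 libraries, all in 1 run of numbers.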

Other observations

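Some members owe their place to the young libraries with low numbers. The non-coding gene Gm26917 was at 143, 150 and 464 CPM in Y replicates 1 to 3 and at 51.7 to 89.5 CPM in replicates 4 to 7, where O ranged from 56.7 to 90.3 CPM. Rn7sk, a small nuclear RNA, was at 67.3, 51.5 and 142 CPM in Y replicates 1 to 3 and at 17.4 to 28.4 CPM in replicates 4 to 7. The predicted gene Gm43652 was at 36.1, 12.1 and 49.1 CPM in the first 3 young libraries and at 1.16 to 2.20 CPM in the others, and it reached 90.3 CPM in O-re replicate 2. Cd5l, Rgs7bp and Igsf10 went the other way, with their lowest young values in replicate 1.

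2 members came from marker lists of other cell types. Cd79b, a chain of the B cell receptor complex, was at 12.9 to 19.4 CPM in Y and 1 to 4.67 CPM in Y-re. The list of 10 B cell markers that holds it summed to 163 to 237 CPM in Y, 87.9 to 121 in Y-re, 90.1 to 317 in O and 27.8 to 192 in O-re, and Pax5 and Blk were among its genes with no count in any Y library. The part of these markers in the level of Cd79b was not tested. Enpp2, which makes lysophosphatidic acid and is abundant in choroid plexus, was at 2.02 to 41.1 CPM in Y and 0.15 to 14.3 CPM in Y-re, overlapping in every group.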
